A study of Mus musculus with 2 samples.

Results

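The genes described are 9 chemokine receptor genes (Ccr1, Ccr2, Ccr7, Ccr9, Cx3cr1, Cxcr2, Cxcr4, Cxcr6 and Xcr1), chosen by name from the 16819 genes of a single-cell RNA-seq matrix of immune cells of the dorsal root ganglion (DRG), where the cell bodies of sensory neurons lie. The cells came from naive WT mice of the BALB/cAnNRj strain, aged 7 weeks or more. CD45+ DAPI- cells of pooled cervical, thoracic and lumbar DRGs were sorted, with hashtag antibodies marking the individual samples, and run in 1 lane of the 10x 3′ assay. The labels name 3 male and 3 female mice and give the sex of each of 6 hashtags, and each hashtag was taken as 1 mouse, an assumption on which each n of 3 rests. All cells of this matrix carried a hashtag that the labels give to a male mouse (481, 772 and 1415 cells in mouse 1, 2 and 3), and 1073 further cells, with a female hashtag, lie in a second deposited matrix of 4395 barcodes that holds both. No group was treated, so the comparisons are between cell types, with the mouse as the replicate.

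Chemokine receptors are seven-pass G protein-coupled receptors that let a leukocyte read gradients of secreted chemokines, and each cell type carries its own set. Ccr2 is known for bringing monocytes out of the bone marrow, Cx3cr1 marks many tissue macrophages, Cxcr2 calls neutrophils to sites of injury, and Cxcr4 holds leukocytes in the marrow. Ccr7 leads lymphocytes and dendritic cells to lymph nodes, Ccr9 leads T cells to the gut, Cxcr6 is common on T cells that stay in tissues, and Xcr1 marks type 1 conventional dendritic cells (cDC1). Of the 9 genes, 6 lie on chromosome 9 (GRCm38), and Ccr9, Cxcr6, Xcr1, Ccr1 and Ccr2 lie there in this order within 435.1 kb (chr9:123678439-124113557).

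The 250 bases before the start of transcription are printed for 4 receptors with unlike patterns over cell types: Cxcr4, found in each type, and Cx3cr1, Cxcr2 and Cxcr6, each highest in another type. The sequences are from RefSeq (GRCm38.p6), run 5′ to 3′ on the strand of the gene and have CG dinucleotides in capitals. They cover chr1:128592300-128592549 (minus strand) for Cxcr4, chr9:120068297-120068546 (minus) for Cx3cr1, chr1:74153744-74153993 (plus) for Cxcr2 and chr9:123806227-123806476 (plus) for Cxcr6.
Cxcr4: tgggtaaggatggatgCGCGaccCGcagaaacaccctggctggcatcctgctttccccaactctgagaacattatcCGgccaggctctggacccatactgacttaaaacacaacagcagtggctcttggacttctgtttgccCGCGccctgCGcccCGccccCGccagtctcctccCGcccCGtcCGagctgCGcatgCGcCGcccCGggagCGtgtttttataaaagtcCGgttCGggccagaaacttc
Cx3cr1: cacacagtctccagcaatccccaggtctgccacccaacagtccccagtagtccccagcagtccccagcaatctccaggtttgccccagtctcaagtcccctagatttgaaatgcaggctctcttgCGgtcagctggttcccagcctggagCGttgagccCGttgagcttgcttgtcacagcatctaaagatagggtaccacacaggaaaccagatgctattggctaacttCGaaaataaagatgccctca
Cxcr2: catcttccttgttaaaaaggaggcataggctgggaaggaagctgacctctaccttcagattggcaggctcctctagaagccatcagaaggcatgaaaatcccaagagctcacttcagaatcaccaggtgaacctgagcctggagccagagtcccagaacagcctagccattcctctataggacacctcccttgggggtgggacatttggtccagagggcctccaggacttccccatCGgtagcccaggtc
Cxcr6: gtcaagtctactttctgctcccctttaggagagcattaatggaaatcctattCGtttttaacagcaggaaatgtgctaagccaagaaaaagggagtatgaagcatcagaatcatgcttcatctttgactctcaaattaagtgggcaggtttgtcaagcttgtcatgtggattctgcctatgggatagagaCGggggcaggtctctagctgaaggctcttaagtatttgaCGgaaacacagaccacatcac
The window of Cxcr4 held 19 CG dinucleotides, more than 80.3% of 32851 promoters, whereas the windows of the 7 other receptors with an entry held 1 to 5, against a median of 6 over all promoters. The table had no entry for Ccr7. Searched on both strands, the letters GAGGAA (the core of PU.1 sites) were in the windows of Ccr1 and Cxcr2 and in 23.3% of all promoters. The letters TGTGGT (the core of RUNX sites) were in those of Ccr1, Cx3cr1 and Cxcr6 and in 14% of all promoters. TATAAA was in those of Cxcr4 and Xcr1 (12.4% of all), and TTGCNNAA (a core of C/EBP sites) in none of the 8 (9.56% of all). A match of letters is a description of the window only.

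Cells were grouped by marker genes that include no receptor. Macrophages had at least 0.5% of their UMIs in C1qa, C1qb and C1qc, and neutrophils at least 5% in S100a8 and S100a9. B cells had at least 4 UMIs of Cd79a and Cd79b, T cells at least 2 of Cd3d, Cd3e and Cd3g, and type 2 conventional dendritic cells (cDC2) at least 3 of Cd209a with C1q genes under 0.5%. A single type was given to 1442 macrophages, 272 neutrophils, 161 B cells, 75 T cells and 54 cDC2, with median totals of 8582, 3636, 3410, 4756 and 13233 UMIs. In each of the 5 types all 6 further marker genes, pooled over mice, were higher than in the other 4. Another 328 cells passed several gates and 336 none, and both sets were left out of the types. Of the 328, 286 passed the gates of neutrophils and T cells: they held 1376 UMIs of Cd3d, 0 UMIs of the T cell receptor gene Trac, and Ly6g in 97.9% of cells, so they carried the markers of neutrophils. Their median total was 10205 UMIs, against 3660 in neutrophils outside the T gate. Levels of Ccr1, Cxcr2, Cxcr4 and Ccrl2 are therefore also given for the whole neutrophil gate of 560 cells, a choice made after these values were seen. Other neutrophil values, with the shares of cells and the tests between types, are of single-type neutrophils unless the whole gate is named. The T gate is the loosest: over all cells of the matrix, those of several gates included, 144 had 2 or 3 UMIs of the Cd3 genes and 170 had 1. The 75 T cells of a single type held 1072 UMIs of the Cd3 genes. Of these cells, 96% had a UMI of the T cell receptor gene Trbc2 and 50.7% had a UMI of Trac. Levels are CPM, the UMIs of a gene per 1000000 UMIs of the sum of a mouse and type (15 sums of 61388 to 7504746 UMIs).

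Cx3cr1, the receptor of fractalkine, had 7591 UMIs, of which 93.7% were in macrophages. Its level in macrophages was 549.7, 679.7 and 482 CPM in mouse 1, 2 and 3 (571 ± 100, SD, n = 3). In cDC2 it was 84.4, 10.7 and 34.0 CPM, and in neutrophils, B cells and T cells the means were 5.70, 3.51 and 7.42 CPM. Macrophages therefore stood apart from each other type in each mouse. Cx3cr1 was higher in macrophages than in cDC2 by 3.86 ± 0.32 on the log2 scale (SE, edgeR quasi-likelihood test, adjusted p = 1.99e-09). Because deeper cells show more genes, shares of cells with a UMI were compared after each cell was thinned to 2000 UMIs. Cx3cr1 was then found in 56.5%, 68.8% and 54.7% of macrophages (60.0% ± 7.67) and in 1.52% of B cells, which should lack it. The share in cDC2 was 5.37% ± 5.95, and the exact 2-sided permutation test gave p = 0.1, the smallest value that 3 values against 3 allow. Here and below, this test took the values of both types as unpaired, although they came from the same 3 mice.

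Ccr2, the receptor of Ccl2, was spread over 3 of the types. Its level was 784, 612 and 636 CPM in cDC2 (677 ± 93.4), 157, 358 and 341 CPM in T cells (285 ± 111) and 253, 241 and 227 CPM in macrophages (240 ± 13.4). The cDC2 values did not overlap those of any other type, while T cells and macrophages overlapped. Ccr2 was lower in macrophages than in cDC2 by a log2 value of -1.31 ± 0.26 (edgeR, adjusted p = 0.000382) and lower in T cells than in cDC2 by -1.57 ± 0.31 (edgeR, adjusted p = 0.000406). Macrophages and T cells were not called apart (log2 difference 0.26 ± 0.30, edgeR adjusted p = 0.505). In neutrophils and B cells it stood at 11.9 and 3.83 CPM. At 2000 UMIs the share of cells with Ccr2 was 76.5%, 35.7% and 65.2% in cDC2 and 20%, 58.3% and 38.9% in T cells, so shares overlapped where levels did not (exact permutation p = 0.3). In B cells it was 0.980%. The monocyte genes Ly6c2, Plac8, Fn1 and F13a1 summed to 748, 80.5 and 649 CPM in cDC2, and their part in the Ccr2 level of cDC2 was not tested. In cDC2 the pooled levels were 76.8, 328, 91.9 and 41.1 CPM in this order, whereas in macrophages F13a1 was 309 CPM and the others were 2.08, 4.48 and 8.88 CPM. The lowest sum and the lowest Ccr2 in cDC2, 612 CPM, were both in mouse 2, a match over 3 mice that was not tested.

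Ccr1, a receptor of Ccl3, Ccl5, Ccl6 and Ccl9, was highest in neutrophils, at 320, 430 and 605 CPM (452 ± 144), or 219, 318 and 360 CPM in the whole neutrophil gate. It was 197, 123 and 136 CPM in cDC2 and 103, 83.1 and 184 CPM in macrophages, and 2 UMIs were found in each of B cells and T cells. Neutrophils were above cDC2 and macrophages in each mouse, and the latter types overlapped. The log2 difference was 2.16 ± 0.30 between neutrophils and cDC2 (edgeR, adjusted p = 2.44e-06) and -2.28 ± 0.26 between macrophages and neutrophils (edgeR, adjusted p = 6.08e-08), and macrophages against cDC2 did not pass (-0.12 ± 0.30, edgeR adjusted p = 0.828). At equal depth 64.2% ± 10.3 of neutrophils, 21.2% ± 6.38 of cDC2, 18.1% ± 5.81 of macrophages and 0 of 73 T cells had a UMI. With 3 cells as the limit of a count of 0, 0 of 73 allows a share with a UMI of up to 4.11% at that depth, and at full depth 2 of 75 T cells had one. Neutrophils and cDC2 did not overlap in this share (exact permutation p = 0.1), for which 31 neutrophils of under 2000 UMIs were left out.

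Cxcr2, the receptor of Cxcl1 and Cxcl2, was nearly confined to neutrophils among the 5 types, with a few UMIs in macrophages and B cells. Neutrophils held 285, 299 and 338 CPM (307 ± 27.8), and the whole gate 177, 201 and 202 CPM. Macrophages had 12 UMIs in 1442 cells, B cells had 1 UMI, and T cells and cDC2 had 0. The log2 difference between macrophages and neutrophils was -8.62 ± 0.30 (edgeR, adjusted p = 1.26e-14), and neutrophils were at least 44.8-fold higher than T cells and at least 77.1-fold higher than cDC2, with 3 counts over the mice set as the floor. Without mouse 3 these bounds were 21.9-fold and 42.1-fold, and without mouse 1 that over T cells was 28.3-fold. Cxcr2 entered the edgeR test through its counts in neutrophils only, which favors such a difference. Its share of cells at 2000 UMIs was 51.7%, 55.6% and 60.9% in neutrophils and 0.112% in macrophages (exact permutation p = 0.1).

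**Figure D1:**
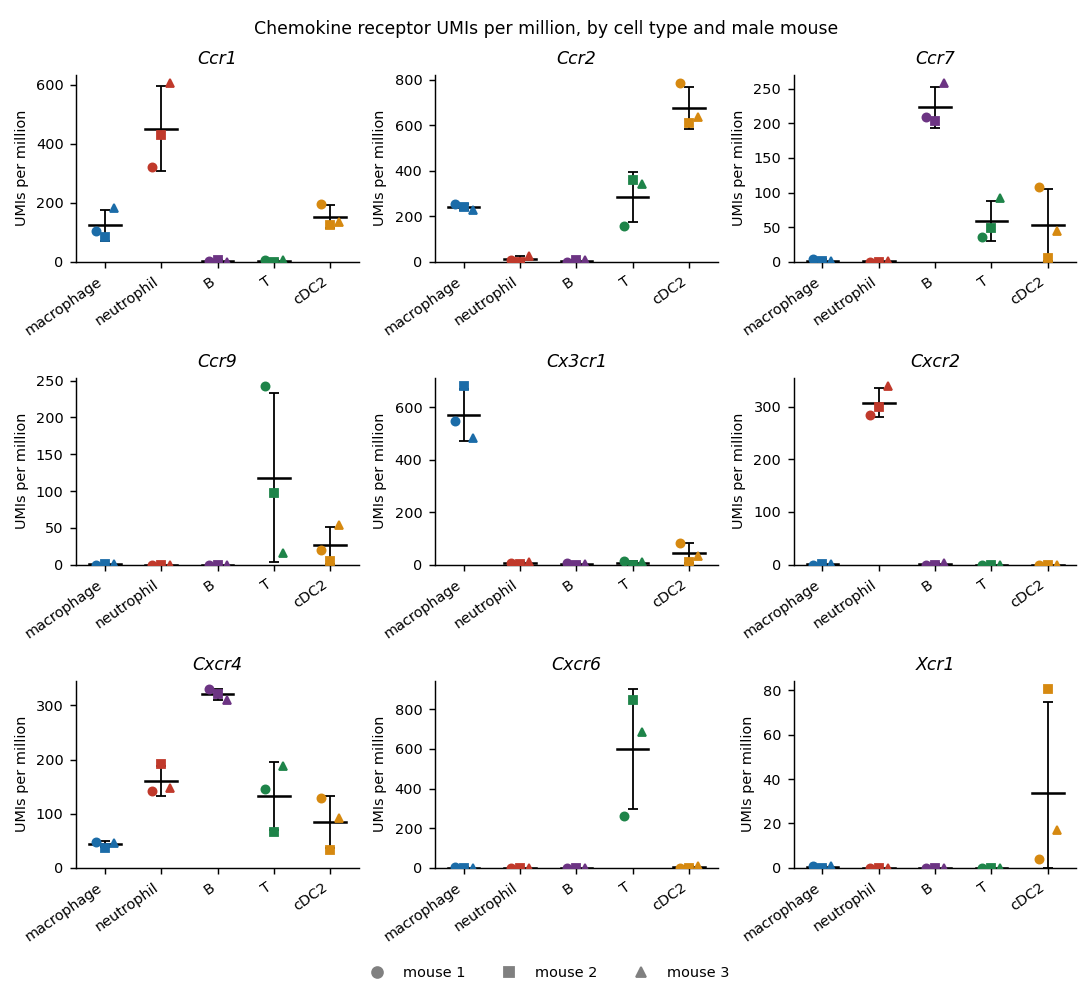
CPM of each receptor (vertical axes, 1 scale per panel) in the sums of each cell type, with 1 point per male mouse, the mean as a bar and the SD as whiskers. Cx3cr1 lies in macrophages, Cxcr2 in neutrophils and Cxcr6 in T cells, and Cxcr4 is above 0 in each type and mouse, with B cells at 311 to 331.

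Among the receptors of lymphocytes, Cxcr4, the receptor of Cxcl12, was found in each type and mouse. Its level was 331, 321 and 311 CPM in B cells (321 ± 10.2), 141, 192 and 147 CPM in neutrophils (160 ± 27.9) and 145, 65.2 and 188 CPM in T cells (133 ± 62.4). In the whole neutrophil gate it was 126, 150 and 97.9 CPM (mean 125), so its mean there was below that of T cells. It was 129, 32.2 and 91.8 CPM in cDC2 and 48.0, 37.1 and 46.4 CPM in macrophages. B cells were above each other type in each mouse. T cells overlapped neutrophils and cDC2, and cDC2 overlapped macrophages. The test scales sums by TMM factors, which were 0.646 to 0.718 in neutrophils, where the 2 gate genes took 29.6% to 29.9% of UMIs, and 1.32 to 1.33 in B cells. Raw totals in place of these factors, an alternative chosen after the data were seen, shift the median log2 difference of all genes between neutrophils and B cells by -0.97 (by -0.83 between neutrophils and T cells), and Cxcr4 depends on that choice. With TMM, neutrophils and B cells were not called apart (-0.07 ± 0.24, edgeR adjusted p = 0.821), and with raw totals the adjusted p was 0.000765. Neutrophils were higher than T cells by 0.91 with TMM (edgeR, adjusted p = 0.0131), but without mouse 2 the adjusted p was 0.0526, and with raw totals the difference was 0.073 (adjusted p = 0.853). Cxcr4 was lower in macrophages than in B cells by -2.30 ± 0.23 (edgeR, adjusted p = 1.39e-08), with either scaling. At equal depth 54.2% ± 6.22 of B cells and 31.5% ± 7.99 of neutrophils had a UMI, with no overlap between mice (exact permutation p = 0.1), and 6.69% ± 1.62 of macrophages had one. Thinning counts all UMIs, those of the gate genes included. These shares thus go with raw totals and not with TMM, and cannot decide between the 2 scalings.

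Ccr7, the receptor of Ccl19 and Ccl21 chemokines, was highest in B cells, at 209, 204 and 258 CPM (224 ± 29.7). T cells had 36.3, 48.9 and 91.5 CPM (58.9 ± 28.9) and cDC2 109, 5.37 and 44.2 CPM (52.7 ± 52.1). B cells did not overlap either, and both overlapped each other. The log2 difference was 1.72 ± 0.49 between B cells and T cells (edgeR, adjusted p = 0.0134) and 1.63 ± 0.44 between B cells and cDC2 (edgeR, adjusted p = 0.0045), and both calls were lost without mouse 3 (log2 2.33 and 1.32, adjusted p = 0.0716 and 0.0982) and with DESeq2 (log2 1.78 and 1.69, adjusted p = 0.139 and 0.0929), with the same direction. In cDC2, 27 of the 41 UMIs came from 1 cell. Macrophages held 11 UMIs and neutrophils 1. At 2000 UMIs, 31.4% ± 5.57 of B cells had a UMI, against 0.188% of macrophages and 5.79% of cDC2, the next type (exact permutation p = 0.1).

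Cxcr6, the receptor of Cxcl16, was a T cell receptor among the 5 types, with 260, 847 and 686 CPM (598 ± 303) and a UMI in 38 of 75 T cells. The 3 mice spread over a wide range, yet neutrophils and B cells had 0 UMIs, macrophages 8, and cDC2 3 UMIs in 1 cell. T cells were at least 292-fold higher than neutrophils, at least 143-fold higher than B cells and 132-fold higher than cDC2 (95% counting interval 44.6 to 645). Without mouse 3 T cells were at least 97.8-fold, 58.1-fold and 60.8-fold higher than neutrophils, B cells and cDC2. The share at equal depth was 32.0%, 66.7% and 47.2% of T cells and 1.45% of cDC2 (exact permutation p = 0.1).

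Ccr9, the receptor of Ccl25, had 242, 97.7 and 15.3 CPM in T cells and 20.1, 5.37 and 54.4 CPM in cDC2, so the mice of both types overlapped and the difference did not pass (log2 1.70 ± 0.71, edgeR adjusted p = 0.0838). It passed without mouse 3 (3.41, adjusted p = 0.00408), with no filter on low counts (1.58, adjusted p = 0.00555) and with raw totals (2.01, adjusted p = 0.042), and was -0.046 without mouse 1. It had 0 UMIs in neutrophils and B cells, which puts T cells at least 62.2-fold above neutrophils and at least 30.5-fold above B cells. Mouse 1 held 40 of the 49 UMIs, and without it the bounds were 13.9-fold and 6.26-fold. Of the 16 T cells with a UMI, 12 were from mouse 1. In cDC2, 21 of 22 UMIs were in 3 cells that also had Siglech, a gene of plasmacytoid dendritic cells.

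Xcr1, the receptor of Xcl1, was nearly absent from the 5 types: cDC2 held 21 UMIs in 4 cells (4.02, 80.5 and 17.0 CPM), macrophages 5 UMIs, and the other types 0. In cDC2, 14 of the 21 UMIs were in 1 cell that had Clec9a, a cDC1 gene. Of its 287 UMIs, 90.9% were in cells of no gate. It did not pass the filter on low counts and was not tested.

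**Figure D2:**
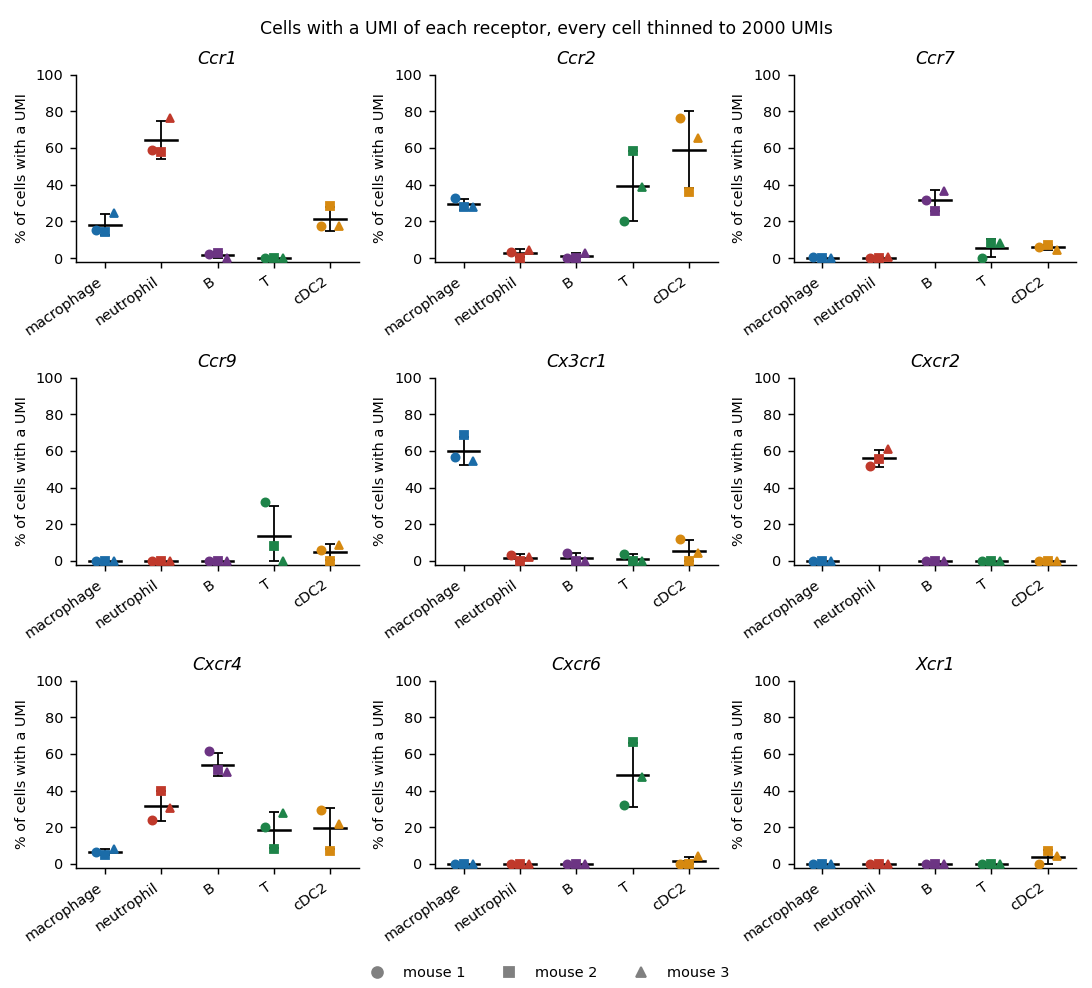
Percent of cells with at least 1 UMI of each receptor (vertical axes) by cell type after thinning to 2000 UMIs per cell, with 1 point per male mouse, the mean as a bar and the SD as whiskers. Ccr1 stands out in neutrophils (64.2%), Cx3cr1 in macrophages (60.0%) and Cxcr6 in T cells (48.6%), and the points of Ccr2 in cDC2 and T cells overlap.

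The number of the 9 receptors found per cell at 2000 UMIs was 1.57 ± 0.169 in neutrophils, 1.27 ± 0.214 in T cells, 1.21 ± 0.317 in cDC2, 1.15 ± 0.0241 in macrophages and 0.897 ± 0.103 in B cells. B cells lay below macrophages and neutrophils in each mouse, and T cells overlapped neutrophils, cDC2 and macrophages. In 60.2% of neutrophils at least 2 of the receptors were found, against 19.9% of B cells. The place of neutrophils in this order holds for those of a single type, as the number over the whole gate was not computed. At this depth neither Cxcr2 nor Cxcr4 was found in 32.8% of single-type neutrophils and in 47.8% of the whole gate.

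All 10 comparisons between the 5 types were tested over 5217 genes that passed the filter, of which 8 were receptors (Xcr1 was not). The receptors called at an adjusted p under 0.05 were 5 of 8 between macrophages and neutrophils (60.5% of all genes tested were called), 5 between macrophages and B cells (58.5%) and 6 between macrophages and T cells (46.8%). They were 5 between macrophages and cDC2 (26.5%), 4 between neutrophils and B cells (55.8%), 7 between neutrophils and T cells (47.9%) and 7 between neutrophils and cDC2 (48.5%). They were 5 between B cells and T cells (21.9%), 6 between B cells and cDC2 (44.7%) and 4 between T cells and cDC2 (28.8%). The share of receptors called was near the background between macrophages and neutrophils, macrophages and B cells, and neutrophils and B cells. The median absolute log2 difference of the receptors, with a type at 0 UMIs set to the floor and pairs at or under 3 UMIs left out, ran from 1.70 (T cells and cDC2) to 5.56 (neutrophils and T cells). Over all genes tested the median was 0.45 to 0.99, from edgeR values with no floor and no pair left out. Taken in that way, the median of the receptors ran from 1.64 (T cells and cDC2) to 6.52 (neutrophils and T cells). Cxcr2 and Cxcr6 had enough counts for the filter in 1 type only, which favors large differences.

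Macrophages were also split at the median share of UMIs in Fcrls, Cd163 and Mrc1, the genes of CD163+ macrophages of the DRG (742 cells above and 742 below, every cell of the macrophage gate). Ccr2 was 99.2, 102 and 136 CPM in cells above the median and 389, 383 and 313 CPM below it. The groups did not overlap, and Ccr2 was lower above the median by a log2 value of -1.78 ± 0.14 (edgeR, adjusted p = 1.86e-05). The paper found Fcrls, Cd163 and Mrc1 by clustering these same cells, with Ccr2 as a marker of the other large macrophage cluster. The direction of Ccr2 was thus known beforehand, and its test gives no independent support. Ccr2 was the only 1 of 4 receptors tested that was called, where 4.25% of 8417 genes were (2.73% lower). Ccr1 went the other way in each mouse (146, 134 and 245 CPM above and 64.8, 39.9 and 124 CPM below), and its call depends on the model: log2 1.04 ± 0.30 with adjusted p = 0.0777 by edgeR, and 1.11 with adjusted p = 6.22e-05 with the mouse as a block. Without mouse 3 it was 1.38 (adjusted p = 0.00279). Cx3cr1 (0.19 ± 0.17, edgeR adjusted p = 0.675) and Cxcr4 (-0.29 ± 0.18, edgeR adjusted p = 0.512) did not pass. Median totals were close, at 8824 and 8462 UMIs. Of 4 monocyte genes, 3 were low and lower above the median than below it, pooled over mice (Ly6c2 1.62 and 4.39 CPM, Plac8 3.67 and 6.06 CPM, Fn1 2.79 and 14.9 CPM), while F13a1 was higher (419 and 201 CPM). The paper reports F13a1 as raised in CD163+ macrophages, so F13a1 is not a gene of monocytes alone. In the monocyte-like cells described further on, Ly6c2 was 1260, Plac8 2536, Fn1 618 and F13a1 656 CPM. The part of these genes in the Ccr2 difference was not tested.

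At 2000 UMIs, single macrophages often showed Cx3cr1 without Ccr2: 621 of 1412 had Cx3cr1 alone, 175 Ccr2 alone, 225 both and 391 neither. At full depth 1305 of 1442 macrophages had a UMI of Cx3cr1 and 721 had one of Ccr2. Thinning thus hid Cx3cr1 in many cells, and these groups hold for that depth only. At 2000 UMIs both were found in 18.1%, 17.5% and 14.4% of the macrophages of mouse 1, 2 and 3. Among the 54 cDC2, 30 had Ccr2 alone, 3 had both and 0 had Cx3cr1 alone, which by the same limit allows a share of up to 5.56% at that depth. At full depth 18 of the 54 had a UMI of Cx3cr1. Ccr1 with Ccr2 was found in 47 macrophages at 2000 UMIs, 3.33%.

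Neutrophils were split at the median share of UMIs in Camp, Ngp and Ltf, genes of the secondary granules that immature neutrophils make (280 cells above and 280 below, the whole gate). Ccr1 was 118, 144 and 175 CPM above the median and 619.6, 898 and 859.6 CPM below it. Cxcr2 was 86.2, 71.0 and 88.8 CPM above and 537, 634 and 509.8 CPM below, and Cxcr4 98.7, 120.3 and 64.0 CPM above and 235, 251 and 189.9 CPM below. The groups of these receptors did not overlap, and how often this held over all genes was not computed. All 3 receptors tested were lower in cells rich in granule genes, where 42.5% of 4335 genes were called and 22.7% were lower: Cxcr2 by -2.44 ± 0.16 (edgeR, adjusted p = 1.90e-07), Ccr1 by -2.13 ± 0.20 (edgeR, adjusted p = 2.84e-06) and Cxcr4 by -1.01 ± 0.21 (edgeR, adjusted p = 0.00191). Cells above the median had 11498 UMIs in the median and those below 3550. Genes of macrophages were also higher below the median: 5 macrophage genes (Csf1r, Adgre1, Fcgr1, Cd68 and Mertk) summed to 20.8, 75.0 and 24.9 CPM above it and 86.7, 125.5 and 267 CPM below, against 2184 to 2215 CPM in macrophages. Of the 4 monocyte genes, Fn1 (2.20 and 31.8 CPM), F13a1 (4.12 and 43.6 CPM) and Plac8 (208 and 327 CPM) were also lower above the median, and Ly6c2 was not (352 and 291.5 CPM). The part of depth and of these genes in the result was not tested. Among cells of the neutrophil gate alone, split anew after these values were seen, Ccr1 and Cxcr2 fell by 1.37 and 1.20 on the log2 scale. Cxcr4 did not pass there (-0.65, edgeR adjusted p = 0.197). This split is another contrast: its cut was 0.0496% of UMIs in the granule genes, with group medians of 0.236% and 0. In the whole gate the cut was 0.947%, with group medians of 9.46% and 0.0455%. In the split of the neutrophil gate alone, the 5 macrophage genes were 47.3 to 52.0 CPM above the median and 65.4 to 191 CPM below it. Of 241 neutrophils at equal depth, 51 had both Cxcr2 and Cxcr4, 88 Cxcr2 alone and 23 Cxcr4 alone. Of 529 cells of the whole gate, 72 had both, 152 Cxcr2 alone and 52 Cxcr4 alone.

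**Figure D3:**
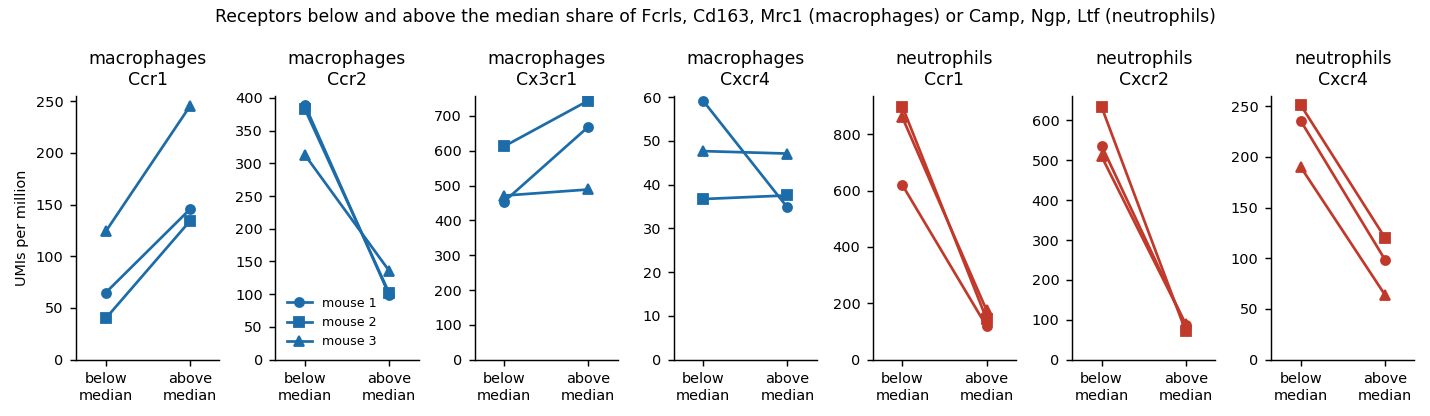
CPM (vertical axes, from 0) of the receptors tested in macrophages and neutrophils below and above the median share of the named genes, with 1 line per male mouse. Ccr2 falls from 313 to 389 down to 99.2 to 136 in macrophages, and Ccr1, Cxcr2 and Cxcr4 fall in neutrophils in each mouse, while the points of Cx3cr1 and Cxcr4 overlap in macrophages.

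B cells with at least 2 UMIs of the precursor genes Vpreb1, Vpreb3, Igll1 and Rag1 numbered 133, and those with none 15 (7, 3 and 5 per mouse), too few for a test. The cells without them held 3 to 14 UMIs of Ccr7 and 5 to 17 of Cxcr4 per mouse. Ccr7 was 121, 172 and 244 CPM with these genes and 554, 340 and 332 CPM without, and Cxcr4 294, 316 and 300 CPM with and 673, 680 and 332 CPM without. In each mouse both receptors were higher without precursor genes.

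Pooled over male mice, Cxcr6, Ccr7 and Ccr9 lay mostly in separate T cells, a crossing looked at after their levels were seen. For Ccr9 and Cxcr6 this rested mainly on mouse 1 and did not hold in mouse 3. At full depth, without thinning, 28 of the 38 male T cells with Cxcr6 (73.7%) also had Ccr2, against 7 of 37 (18.9%) without Cxcr6. The shares were 75%, 75% and 72.7% with Cxcr6 and 5.26%, 50% and 28.6% without it in mouse 1, 2 and 3, the latter among 19, 4 and 14 cells. Cxcr6 shared 1 cell with Ccr7 and 3 with Ccr9, and these 3 were all the cells with Ccr9 in mouse 3. Cells with both Cxcr6 and Ccr9 were 0 in mouse 1, where 12 cells had Ccr9, and 0 in mouse 2, where 1 had it. Of the 16 cells with Ccr9, 11 had a UMI of Cd8a, the co-receptor of cytotoxic T cells, 9 of them from mouse 1. In female mice, 19 of 24 T cells with Cxcr6 had Ccr2 and 0 had Ccr7.

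Cells of no gate held much of Ccr2 (34.7% of its UMIs), Cxcr6 (39.5%), Ccr9 (50.3%) and Xcr1, and were sorted by further marker genes, pooled over mice. Cells with Ly6c2, Plac8 and Csf1r (monocyte-like, 101 cells, 4 of 5 monocyte genes higher than in any of the 5 types, 2 of them genes of the gate) had the highest Ccr2 in male mice, 1078, 1114 and 884 CPM per mouse (963 pooled, 95% counting interval 910.5 to 1018), with Ccr1 at 226, Cxcr4 at 201 and Cx3cr1 at 82.9 CPM pooled. In female mice the order differed: Ccr2 was 594 CPM pooled (504 to 696) in 19 monocyte-like cells (463, 892 and 634 CPM per mouse), 806 CPM (729 to 889) in cDC2 and 745 CPM (548 to 991) in 13 natural killer-like cells. Cells with Clec9a (cDC1-like, 19 cells, 6 of 6 genes) had Xcr1 in 17 cells at 351 CPM (286 to 427) and Ccr2 at 296 CPM, and in female mice Xcr1 was 417 CPM in 10 such cells. The 7 cells with Siglech all had Ccr9, at 1023 CPM (771 to 1331, and 994 CPM in 4 such cells of female mice), yet only 3 of 6 genes of plasmacytoid dendritic cells were highest there, so they are named by Siglech alone. Natural killer-like cells (29 cells, 6 of 6 genes) had Ccr2 at 499, Cxcr4 at 296 and Cxcr6 at 284 CPM, and 4 basophil-like cells had 33 UMIs of Cxcr4 (831 CPM, 572 to 1167). Ccr7 in cells of no gate came to 101 UMIs in 10 cells, with 93 in 3 of them. Intervals cover counting error only.

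**Figure D4:**
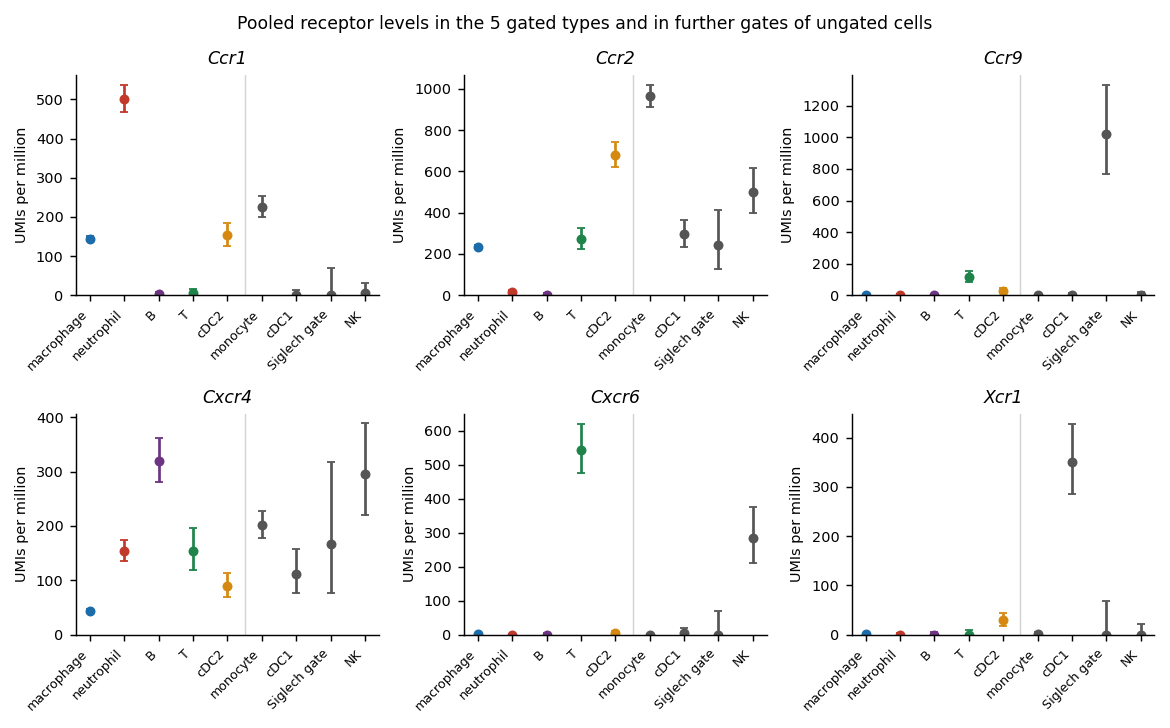
Pooled CPM (vertical axes) of 6 receptors in the 5 types of male mice and, right of the line, in 4 further groups of cells that passed none of the 5 gates, with 95% counting intervals. Ccr2 is highest in monocyte-like cells (963), Ccr9 in Siglech cells (1023) and Xcr1 in cDC1-like cells (351), groups of 101, 7 and 19 cells. In female mice, not plotted, cDC2 (806) had more Ccr2 than monocyte-like cells (594).

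Of 16 further chemokine receptor genes, 13 were in the matrix and 4 passed the filter, each called in at least 1 comparison, as were 89.8% of all genes tested, and 3 of them are described. Ccrl2, which binds chemerin without signaling, was highest in macrophages (1974, 2150 and 2126 CPM) and single-type neutrophils (1088, 1880 and 1952 CPM), and lower in B cells (48.4 CPM). In the whole neutrophil gate it was 476, 1034 and 826 CPM, against 1029, 907 and 568 CPM in cDC2. Cxcr3, which T cells use to enter inflamed tissue, was 72.6, 212 and 132 CPM in T cells and 2.65 CPM in macrophages. Cmklr1, the chemerin receptor, was 40.7, 41.8 and 42.8 CPM in macrophages and called higher there than in each other type (over cDC2 by a log2 value of 3.49 ± 0.54, edgeR adjusted p = 3.12e-05). Cmklr1 had enough counts for the filter in macrophages only, and Cxcr3 in T cells only, which favors calls in that direction.

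Of 20 ligands of the 9 receptors, 19 were in the matrix and 13 passed the filter. Macrophages were higher than neutrophils in 9 of the 13 (32.3% of all genes tested) and higher than B cells in 11 of the 13 (31.1% of all genes tested). A ligand could pass the filter through its counts in macrophages, as Ccl8 did through macrophages only, which favors calls in this direction. The Cxcr2 ligands Cxcl2 and Cxcl1 (means of 20271.5 and 5489 CPM) and the Ccr2 ligands Ccl12, Ccl7 and Ccl2 (2585, 1022 and 884 CPM) had their highest mean in macrophages. Cxcl3, another ligand of Cxcr2, was 79.0 CPM in macrophages and 55.1 CPM in neutrophils, with no call between them (log2 -0.11 ± 0.31, edgeR adjusted p = 0.773). Ccl6, a ligand of Ccr1, was highest in neutrophils (1843 CPM), and Ccl5 (1598 CPM) and Xcl1 (615 CPM) in T cells. Cxcl16, the ligand of Cxcr6, was 349 CPM in macrophages, while Ccl19, Cx3cl1, Cxcl12 and Cxcl5 were under 6 CPM in each type. The paper reports signs that enzymatic digestion of the tissue induced genes in these cells, above all in macrophages. The part of digestion in the levels of ligands and receptors was not tested.

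The same measures were taken in female mice, in cells outside that matrix (597 macrophages, 66 neutrophils, 105 B cells, 52 T cells and 39 cDC2). Of 48 calls between types that could be fitted there, 44 were found again with the same direction. The other 4 were Cxcr4 in macrophages against cDC2 and in neutrophils against T cells, Ccr2 in neutrophils against B cells, and Ccr7 in B cells against T cells (log2 0.50, edgeR adjusted p = 0.469). How many calls over all genes were found again was not computed, so 44 of 48 cannot be read as particular to the receptors. Between female and male mice, 7 receptors passed the filter and 0 were called in any type by edgeR (of 4544 genes, 0.154% were in macrophages, 0.088% in neutrophils, 0.066% in B cells, 0.154% in T cells and 0.132% in cDC2), with 1 at an unadjusted p under 0.05. This was Ccr7 in T cells, at 271, 189 and 231 CPM in female and 36.3, 48.9 and 91.5 CPM in male mice, which did not overlap (log2 female minus male 1.94 ± 0.66, edgeR adjusted p = 0.269). For a difference between the sexes in the 10 comparisons of types, 0 of the 7 receptors were called by edgeR, with 1 at an unadjusted p under 0.05 in each of 2 comparisons. None of the 4544 genes was called in any of these 10 tests (0%), so the count says nothing particular to the receptors. Ccr9, not tested, had 49 UMIs in 16 of 75 male T cells and 3 UMIs in 1 of 52 female T cells. Male mouse 1 held 40 of these UMIs in 12 cells, mouse 2 held 6 in 1 cell and mouse 3 held 3 in 3 cells. The male level thus rested mainly on 1 mouse.

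**Figure D5:**
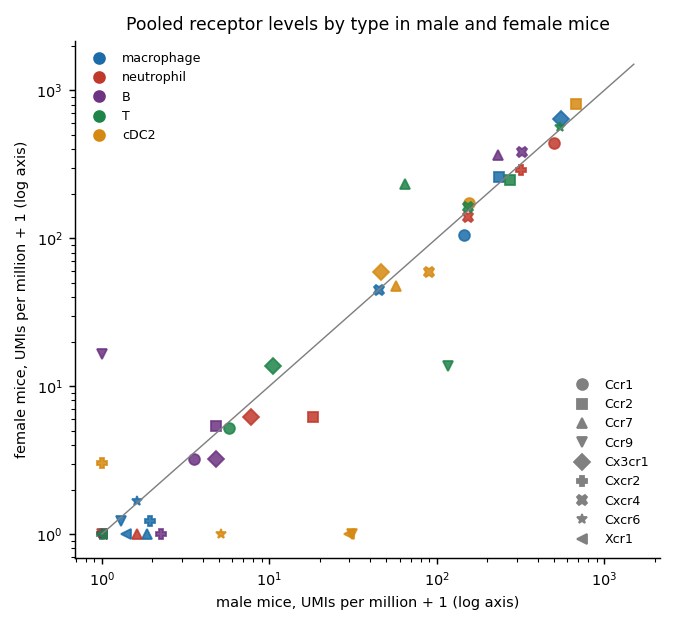
Pooled CPM plus 1 of each receptor (shape) in each type (color) in male (horizontal, log axis) and female mice (vertical, log axis), with the line of equal levels. Most points above 30 lie near the line, and Ccr7 in T cells lies above it and Ccr9 in T cells below it. Of the 49 UMIs of Ccr9 in male T cells, 40 were from mouse 1.

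For each receptor the 3 genes whose log2(CPM + 1) correlated best with it over the 15 sums were found, out of 9832 genes with at least 50 UMIs, gate genes left out, and for Cx3cr1 and Ccr2 the second and the third are given. They were Camk1 (Pearson r = 0.928) and Nrp1 for Cx3cr1, Hdc (0.998), Acta2 and 4833407H14Rik for Cxcr2, and Nfam1 (0.958), Rnf149 and Tbc1d8 for Ccr1. For Cxcr6 they were Skap1 (0.99), Cd28 and Icos, and for Ccr9 Klrd1 (0.919), Kcnn4 and Eif4e3. For Ccr2 they were Lmna (0.951) and Fnbp1, for Ccr7 Mak16 (0.961), Nfatc3 and Btf3, and for Cxcr4 Tmpo (0.946), Kif11 and Ttk. All sums share 1 lane, sums of a mouse share its depth, and sums of a type share the type. These correlations are therefore descriptions over 5 types, with no test.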

How the data were processed

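The authors deposited raw UMI counts of 16819 genes in cells of the male mice, made with Cell Ranger (3.1.0 in the file header of the second matrix, build mm10) then cleaned in Seurat by gene number (200 to 5000) and mitochondrial share (up to 5%) and assigned to animals by HTODemux, per the labels and the methods. They also deposited the counts of 4395 barcodes with 6 hashtags. Here HTODemux (Seurat 5.3.0) gave each cell its mouse, and each deposited cell had 1 male hashtag (1073 cells outside that matrix had a female one). Counts of both matrices differed at 0 entries. UMIs were summed per mouse and type (at least 5 cells), with 61388 to 7504746 UMIs per sum, which limits rare genes in T cells and cDC2 most. Sums were tested with edgeR 4.0.16 (R 4.3.3; TMM, filterByExpr, quasi-likelihood test, Benjamini-Hochberg over all genes tested), after tests on simulated data. Alternatives were DESeq2 1.42.0, other scalings, filters, gates and depths, and each mouse left out. Thinning to 2000 UMIs left out 30 macrophages, 31 neutrophils, 10 B cells, 2 T cells and 0 cDC2. Pooled values carry exact 95% intervals, and a count of 0 is given with the limit that 3 counts set. Scrublet (scanpy 1.11.5) marked 11 cells, too few to have worked, so doublets were removed only by hashtag (269).

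Sums with the same number are the same mouse. Their deviations from the type means correlated at 0.0487, 0.0615 and 0.0178 on average in mouse 1, 2 and 3 (macrophage split 0.0596, 0.299 and 0.238, neutrophil split 0.0647, -0.055 and -0.0475). The mouse was a block in an alternative. The receptors, gene lists, gates and splits were chosen with earlier results of these data known. Named genes are the 9 receptors, listed other receptors and ligands, and the 3 best correlated genes of each receptor. A few genes of these lists are not reported here, and the monocyte sum leaves out 1 of its 5 listed genes. The hashtag key gives sex only.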

Additional observations from a re-analysis of the deposited data

How the results depend on the processing

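Of 54 calls of a receptor between types, 39 kept direction and call in all alternatives in which they could be fitted, and 15 did not. There were 14 alternatives, and Ccr9 could not be fitted in those with stricter gates and with female mice. With the mouse as a replicate block 54 were called and 0 were lost, and in the splits the block added Ccr1 in macrophages (2 receptors called in place of 1) and changed no other call. Without replicate 3, the mouse with most cells, 46 were called and 9 of the 54 were lost (50 and 53 without replicates 1 and 2). Counts of called receptors were 3 in place of 5 between macrophages and cDC2 with stricter gates and in female mice, 3 in place of 5 between B cells and T cells in female mice, and 2 in place of 1 in the macrophage split where the outer parts of the distribution replaced the median cut. With each mouse left out they were 1 to 2 in that split. Only 1 call turned direction: Cx3cr1 between T cells and cDC2 was 2.21 (adjusted p = 0.0354, -2.51 before) when cells of several gates were kept. Most of these cells had Cd3e beside C1q genes or Cd3d beside neutrophil genes. Each was put in the first of its gates in the order neutrophil, B, T, macrophage and cDC2. The 34 cells that passed the macrophage and T gates were thus counted as T cells. Values that were not called also turned sign, and 6 pairs without a call were called in an alternative: Ccr9 between T cells and cDC2 and Cxcr4 between neutrophils and B cells as given above, Ccr1 and Cx3cr1 between B cells and T cells with several gates kept (-4.54 and -2.97, adjusted p = 0.00228 and 0.00464), and 2 that turned sign and are given with their adjusted p. Leaving out 1 mouse at a time moved Cxcr4 between neutrophils and B cells over -0.15 to 0.036, Ccr1 between B cells and T cells over -1.81 to 0.093, Cx3cr1 between neutrophils and T cells over -0.16 to 0.77, and, between T cells and cDC2, Ccr7 over -1.01 to 1.24 and Ccr9 over -0.046 to 3.41. Cx3cr1 between neutrophils and T cells was -3.36 with several gates kept (adjusted p = 0.000287), -0.50 in female mice and -0.48 with raw totals, and Ccr7 between T cells and cDC2 was 2.10 in female mice (adjusted p = 0.0103) and 0.18 with raw totals. The cause was not tested. With no filter on low counts 59 calls were made over 9 receptors, and DESeq2 made 52. In the smallest sum, T cells of mouse 2 with 61388 UMIs, 1 UMI is 16.3 CPM. Alternatives chosen after the data were seen were raw totals (54 calls, 52 of them the same), a T gate without Cd3d (54 calls), the splits in cells of 1 gate, and each mouse left out between the sexes (0 receptors called each time).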
